A study of Rattus norvegicus with 60 samples.

Results

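The proteasome subunit genes were the genes of the count table whose symbol is Psma, Psmb, Psmc, Psmd or Psme followed by a number and nothing else. The rule found 42 of the 20662 genes. Of these, 39 were treated as standard subunits, and Psmb8, Psmb9 and Psmb10, the inducible catalytic subunits, were set apart. All 42 had a total of at least 5 reads over the 60 libraries and were among the 17155 genes tested. Psma3 was not among the symbols found, and Psma3l and Psmc3ip were left out by the rule.

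The libraries were made from the right hind limb muscle of male Sprague-Dawley rats 6 to 7 weeks old. Injured rats were anaesthetised with chloral hydrate, depilated and hit on the limb by a dropped weight, and muscle was taken from the wound site after skeletal muscle injury (SMI). There were 7 rats each at 4 h and 20 h, and 8 rats each at 8, 12, 16, 24 and 48 h. The 6 control rats were not injured and were killed directly with the same agent, without prior anaesthesia and depilation, so that injury cannot be told apart from these steps. Each library came from a different rat, and the p-values therefore measure the spread between these rats.

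The headings of the deposited columns did not name the libraries rightly, and the groups were taken from the position of the column. Scaled by a single factor, the values of each of 49 libraries in a copy of the study's normalized table, over 1288 genes, were those of exactly 1 column in the position of its own group (99.73% to 100% of the genes with a read, against at most 3.89% in any other column). The heading matched the group for only 9 of these 49. Since the numbers in the headings cannot be used either, the library numbers below only count columns within a group. By the medians of 540 genes per group, the study used 53 of the 60 libraries. Those it left out were here 4h 1, 8h 6, 12h 6, 12h 8, 20h 4, 48h 2 and 48h 6, and results that rest on them are given with and without them. The groups of these 7 rest on the position of the column alone.

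Totals per library ran from 16372673 to 34931323 reads and fell into 24 libraries of lower total (up to 22212933) and 36 of higher total (from 27140720), with 3 of the lower total in every group. The summed level of the 8 muscle fibre markers was 34510 to 200200 CPM (the read count scaled to a common library size, TMM-adjusted unless the column total is named), and that of 5 retina markers, looked up since the extraction protocol of the labels speaks of retinas, was at most 6.04 CPM. Libraries stood apart in 2 ways. In 48h 2, 34 of the 36 standard subunits with a mean of 10 or more reads lay above all other 48 h libraries (median log2 ratio to the group median 1.13), and in 8h 7, 32 of 36 lay above all other 8 h libraries (0.69). In 6 libraries (4h 1, 8h 6, 12h 2, 12h 4, 12h 5 and 24h 1) the markers of B cells summed to over 50 CPM of the column total. Some results are therefore also given without these libraries.

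The proteasome degrades proteins tagged with ubiquitin. Its core particle is a barrel of stacked rings, with outer rings of alpha subunits (Psma) and inner rings of beta subunits (Psmb), of which Psmb5, Psmb6 and Psmb7 carry the proteolytic sites. The regulatory particle caps the barrel. Its ring of ATPases (Psmc) unfolds the substrate, and its non-ATPase subunits (Psmd) bind and remove ubiquitin, while other caps, the activators, are built from Psme proteins. Interferon induces Psmb8, Psmb9 and Psmb10, which take the places of Psmb5, Psmb6 and Psmb7 in the immunoproteasome and favour peptides that fit MHC class I. When proteasomes are impaired, the transcription factor NFE2L1 raises the subunit genes together through antioxidant response elements in their promoters. In muscle, the proteasome breaks down myofibrillar proteins during wasting.

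Promoters are shown for members that differed in their response, chosen among those whose promoter holds a core described below. The 2 kinds of element are known from such genes. For 37 of the 42 members RefSeq gave a window of 300 bases, 250 before the gene start and 50 after it, on GRCr8 (the counts were made on rn6). No window was matched for Psma7, Psmb11, Psmd6, Psmd12 and Psmd14. Each window below is written 5′ to 3′ in the sense of the gene. Capitals in Psmd1, Psme4 and Psmb6 mark the core of the antioxidant response element, TGACNNNGC on either strand, and capitals in Psmb8 and Psmb10 mark the core of the interferon-stimulated response element, GAAA and GAAA with 2 bases between them, on either strand.
Psmd1, chr9:94157721-94158020, plus strand: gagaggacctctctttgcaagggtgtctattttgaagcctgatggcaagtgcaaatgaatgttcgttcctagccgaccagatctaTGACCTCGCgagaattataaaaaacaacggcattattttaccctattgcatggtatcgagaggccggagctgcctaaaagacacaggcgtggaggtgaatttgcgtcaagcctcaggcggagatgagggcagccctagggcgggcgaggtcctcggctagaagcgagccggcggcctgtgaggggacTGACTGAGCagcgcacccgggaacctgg
Psme4, chr14:108706393-108706692, plus strand: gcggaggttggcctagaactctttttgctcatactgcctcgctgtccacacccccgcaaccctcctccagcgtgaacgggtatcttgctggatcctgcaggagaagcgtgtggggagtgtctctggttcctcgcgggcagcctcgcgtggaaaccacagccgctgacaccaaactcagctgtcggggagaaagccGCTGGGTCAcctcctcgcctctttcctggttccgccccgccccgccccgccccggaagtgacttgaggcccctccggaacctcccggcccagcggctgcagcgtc
Psmb6, chr10:55737638-55737937, plus strand: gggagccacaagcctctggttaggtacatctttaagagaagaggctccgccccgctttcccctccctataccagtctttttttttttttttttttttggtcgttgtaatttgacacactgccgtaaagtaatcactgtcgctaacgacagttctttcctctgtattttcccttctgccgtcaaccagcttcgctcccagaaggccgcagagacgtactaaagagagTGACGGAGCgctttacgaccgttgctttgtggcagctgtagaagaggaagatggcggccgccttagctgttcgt
Psmb8, chr20:4656982-4657281, minus strand: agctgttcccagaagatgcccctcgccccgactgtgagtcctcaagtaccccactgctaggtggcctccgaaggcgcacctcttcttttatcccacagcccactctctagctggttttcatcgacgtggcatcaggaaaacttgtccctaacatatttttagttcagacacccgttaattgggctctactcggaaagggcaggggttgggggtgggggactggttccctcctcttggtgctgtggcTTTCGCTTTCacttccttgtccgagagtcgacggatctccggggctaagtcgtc
Psmb10, chr19:50743243-50743542, minus strand: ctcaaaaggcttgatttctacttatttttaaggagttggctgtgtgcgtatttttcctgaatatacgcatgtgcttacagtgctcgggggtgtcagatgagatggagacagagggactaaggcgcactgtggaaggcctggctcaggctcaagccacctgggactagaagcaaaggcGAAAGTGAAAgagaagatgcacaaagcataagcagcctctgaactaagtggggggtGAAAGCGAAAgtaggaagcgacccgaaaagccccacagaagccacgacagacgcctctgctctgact
Psmd1 and Psme4 were called higher after injury and Psmb6 was not. All of them hold the antioxidant element core because they were chosen for it. Of the 4 standard subunits called higher by over 2-fold at 24 h, Psmd3 holds this core and Psma5, Psmd8 and Psmd11 do not. It was found in 7 of the 37 member promoters (18.9%; Psmb2, Psmb5, Psmb6, Psmd1, Psmd3, Psmd9 and Psme4), against 12.1% of all 33469 promoters of the same length. The interferon element core stood in 6 of 37 (16.2%; Psma4, Psmb3, Psmb8, Psmb10, Psmd7 and Psme2), against 3.92% of all promoters. A gamma-activated site, TTCNNNGAA, stood in 4 of 37 (10.8%; Psmb8, Psmc6, Psmd3 and Psmd7), against 8.87% of all promoters. Matches of different motifs did not overlap in these windows. A match is a stretch of letters, not a site shown to be bound.

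Most standard subunits were called higher than in control muscle at 24 h after injury, and fewer were called at every other time. At 24 h, 27 of the 39 standard subunits were called higher and 0 lower, where 21.9% of all genes tested were called higher and 20.1% lower. The median log2 change over the 36 standard subunits with a mean of 10 or more reads was 0.54, against 0.00 over all genes. The calls are from edgeR's quasi-likelihood test at an adjusted p below 0.05 over all genes (0 lower also with DESeq2, and 0 lower at an unadjusted p below 0.05). Muscle is a mixture of cells, so a change in RNA per cell cannot be told apart from a change in the cells present. The muscle fibre markers summed to 42010 to 116400 CPM at 24 h, against 159700 to 191000 CPM in controls, and the 9 macrophage and monocyte markers to 820.9 to 2255 CPM, against 180.6 to 305.4 CPM. Their part in the subunit changes was not tested.

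**Figure D1:**
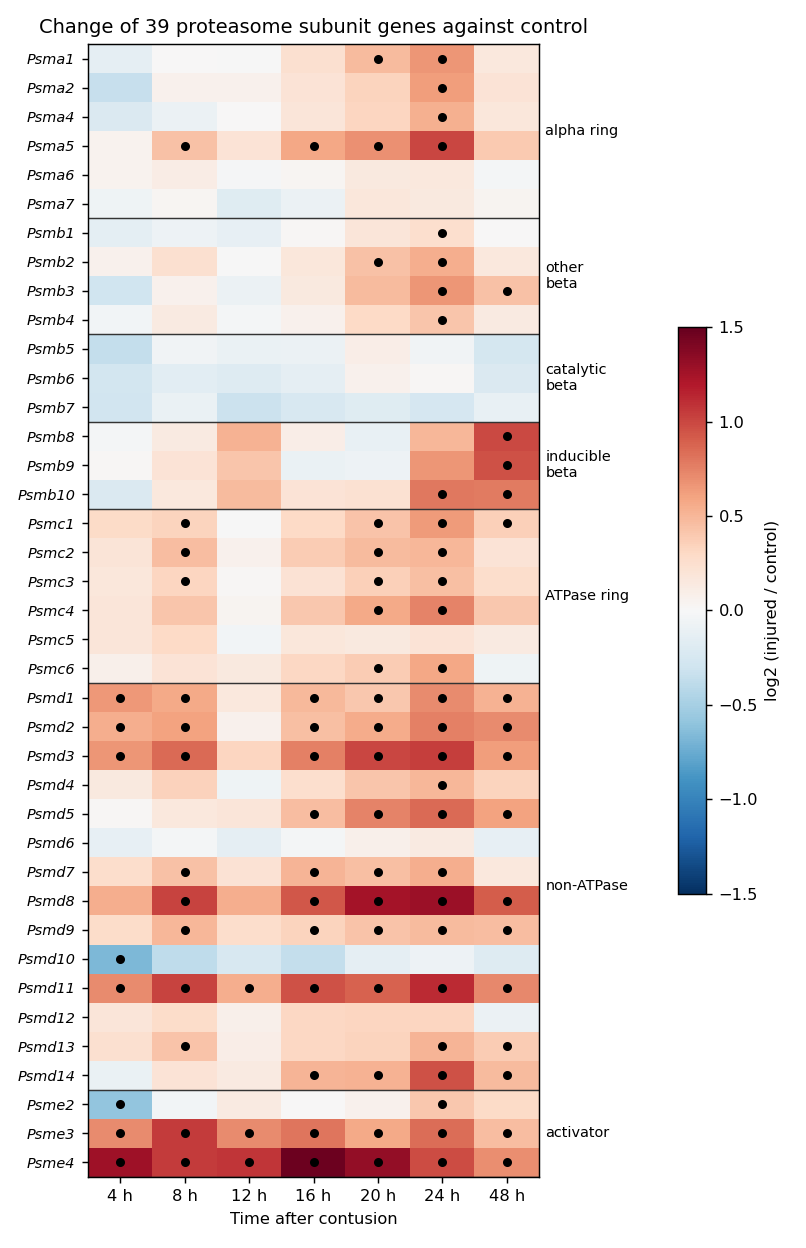
Log2 change of the 36 standard and 3 inducible subunits with a mean of 10 or more reads (rows, by structural class) at 7 times after injury against control (columns); the colour runs from -1.5 to 1.5 and a dot marks an adjusted p below 0.05. Most rows are darkest at 24 h, the 3 catalytic subunits carry no dot at any time, and Psmd11, Psme3 and Psme4 carry one at all 7 times.

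Fewer subunits were called at 12 h than at 8 h or 16 h. The number of standard subunits called higher was 6 at 4 h and 14 at 8 h. It was 3 at 12 h, and at the later times 12, 19, 27 and 13. Over all genes the share called higher at the other times was 22.8% at 4 h, 24.6% at 8 h and 19.1% at 12 h, and 20.0%, 12.9% and 23.0% at 16, 20 and 48 h. With all libraries, the members' share lay below that of all genes at 4 h and 12 h, and above it at 8, 16, 20, 24 and 48 h. This turned at 4 h with the 53 libraries of the study (30.8% of the members against 22.4%), at 48 h without library 48h 2 (17.9% against 22.7%) and at 12 h with scaling by column totals (33.3% against 31.3%). With matched columns only it turned at 4 h and 48 h too, and at 8 h without library 8h 7 the shares were 23.1% and 23.0%. The median log2 changes were 0.07, 0.26 and 0.05 at 4, 8 and 12 h, and 0.28, 0.42, 0.54 and 0.24 at the later times. Only at 4 h were standard subunits called lower, namely Psmd10 and Psme2, where 22.2% of all genes were. At 8, 12, 16, 20 and 48 h 0 members were called lower (0 also with DESeq2; at an unadjusted p below 0.05, 1 at 8, 12 and 16 h each and 0 at 20 and 48 h), against 25.9%, 13.1%, 16.9%, 6.61% and 18.2% of all genes.

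Counts at 8, 20 and 48 h rested in part on single libraries. Without 8h 7, 9 members were higher at 8 h. Without 20h 1, 10 were higher at 20 h. Without 48h 2, 7 members were higher and 3 lower at 48 h. When only the 53 libraries of the study were fitted, 12 standard subunits were higher at 4 h and 10 were higher and 3 lower (Psmb6, Psmd6 and Psmd12) at 48 h. Scaling by column totals moved the median of all genes by 0.52 (log2) at 24 h, and the standard subunits lay 0.55 above it at 24 h, against 0.54 with TMM.

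Of the 36 standard subunits, 27 had their highest change at 24 h, 4 at 8 h (Psmb7, Psmc5, Psmd9 and Psme3), 4 at 20 h and 1 at 16 h (Psme4). In the test of any difference between the 8 groups, which called 75.7% of all genes, 29 of the 39 passed and Psma6, Psma7, Psma8, Psmb5, Psmb6, Psmb7, Psmb11, Psmc5, Psmd6 and Psme1 did not. Psma8 and Psmb11, known from testis and thymus, had 17 and 7 reads in total. Psme1, a subunit of the interferon-inducible activator, had 103 reads in total and 0 to 6 per library, so that no change could be read for it. Whether the annotation or the counting kept its reads low was not tested.

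**Figure D2:**
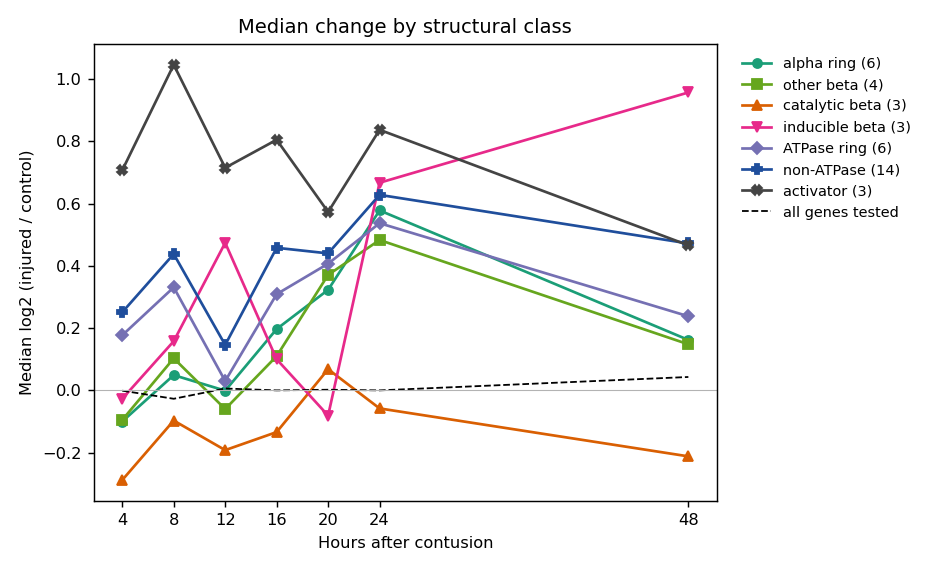
Median log2 change against control by structural class (lines) over the time after injury in hours, with the median of all genes tested as a dashed line. The activators are the highest class from 4 to 24 h, the alpha, other beta, ATPase and non-ATPase medians are highest at 24 h (0.48 to 0.63), and the catalytic median runs from -0.29 at 4 h to 0.07 at 20 h.

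The catalytic subunits of the standard core did not take part in the calls. Psmb6, the caspase-like subunit, was at 131 to 184 CPM (median 149.8) at 24 h, against 144 to 164 CPM (median 154) in controls. The groups overlapped, and the log2 change was 0.01 (95% interval -0.23 to 0.26, adjusted p = 0.95). Psmb7, the trypsin-like subunit, was at 84.8 to 150 CPM (median 112) at 24 h, against 127 to 144 CPM (median 136) in controls. In 6 of 8 libraries it lay below every control, with a log2 change of -0.25 (interval -0.54 to 0.04, adjusted p = 0.16). Neither passed at any time with all libraries and TMM. Their lowest changes were -0.28 at 4 h for Psmb6, below every control in 7 of 7 libraries, and -0.33 at 12 h for Psmb7. With the 53 libraries of the study, Psmb6 was called lower at 48 h. Under scaling by column totals, Psmb6 was called higher at 20, 24 and 48 h (0.27, 0.54 and 0.40) and Psmb7 at 48 h (0.49), so that their place below the other subunits, rather than the sign, is what both scalings share.

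Psmb5, the chymotrypsin-like subunit, could be read less sharply, since its level split with the library total. At 24 h it was at 65.6 to 87.6 CPM in the 5 libraries of higher total and 39.9 to 46.8 in the 3 of lower total, and in controls at 80.5 to 93.1 and 47.3 to 55.5 CPM. Libraries of higher total exceeded those of lower total by 0.85 on the log2 scale in the same fit (adjusted p = 6.34e-16), a comparison that called 3.75% of all genes higher and 3.33% lower. Psma4 was the only other member higher there (0.29), and Psmd10 was lower (-0.45). The log2 change of Psmb5 at 24 h was -0.06 (interval -0.57 to 0.46, adjusted p = 0.88). With the set of totals as a term, Psmb5 was called lower at 4 h (-0.47, adjusted p = 0.0029) and 48 h (-0.35, adjusted p = 0.021).

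In the alpha ring, which gates the barrel, 4 of 6 subunits rose at 24 h, 2 at 20 h, 1 at 8 and 16 h each and 0 at 4, 12 and 48 h. Psma5 had the largest change of the ring. Its level was 119.85 to 196 CPM (median 148) at 24 h, against 66.9 to 88.0 CPM (median 78.8) in controls. All 8 injured libraries lay above every control, and the log2 change was 1.004 ± 0.17 (SE, adjusted p = 6.1e-06). Psma5 was also higher at 8 h (0.44), 16 h (0.57) and 20 h (0.69), and at 48 h its change of 0.40 did not pass (adjusted p = 0.058). Psma7 had the smallest change at 24 h, with 192 to 299 CPM (median 235) against 203 to 236 CPM (median 213) in controls and a log2 change of 0.15 (interval -0.14 to 0.44). Psma1, Psma2 and Psma4 rose at 24 h by 0.66, 0.62 and 0.53, and Psma6 did not pass (0.16).

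The non-catalytic beta subunits rose together at 24 h, when 4 of 4 were called higher, against 21.9% of all genes. Psmb3 had the largest change, with 109 to 187 CPM (median 122) at 24 h against 82.0 to 93.2 CPM (median 86.9) in controls (log2 change 0.66 ± 0.19, adjusted p = 0.0032), with all 8 libraries above every control. At 4 h, in contrast, all 7 libraries lay below every control (62.6 to 79.4 CPM), although the change of -0.30 did not pass (adjusted p = 0.19). Psmb1 had the smallest change at 24 h, 0.25 ± 0.10 (adjusted p = 0.041), which was lost when any 1 of 22 libraries, 5 of them controls, was left out. Psmb2 and Psmb4 rose by 0.55 and 0.42. At 20 h only Psmb2 was called, and at 48 h only Psmb3 (0.44, adjusted p = 0.049). The shares of all genes called higher at these times were 12.9% and 23.0%. The call of Psmb2 was lost when any 1 of 28 libraries was left out (adjusted p up to 0.22), and that of Psmb3 when any 1 of 41 was (up to 0.37).

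**Figure D3:**
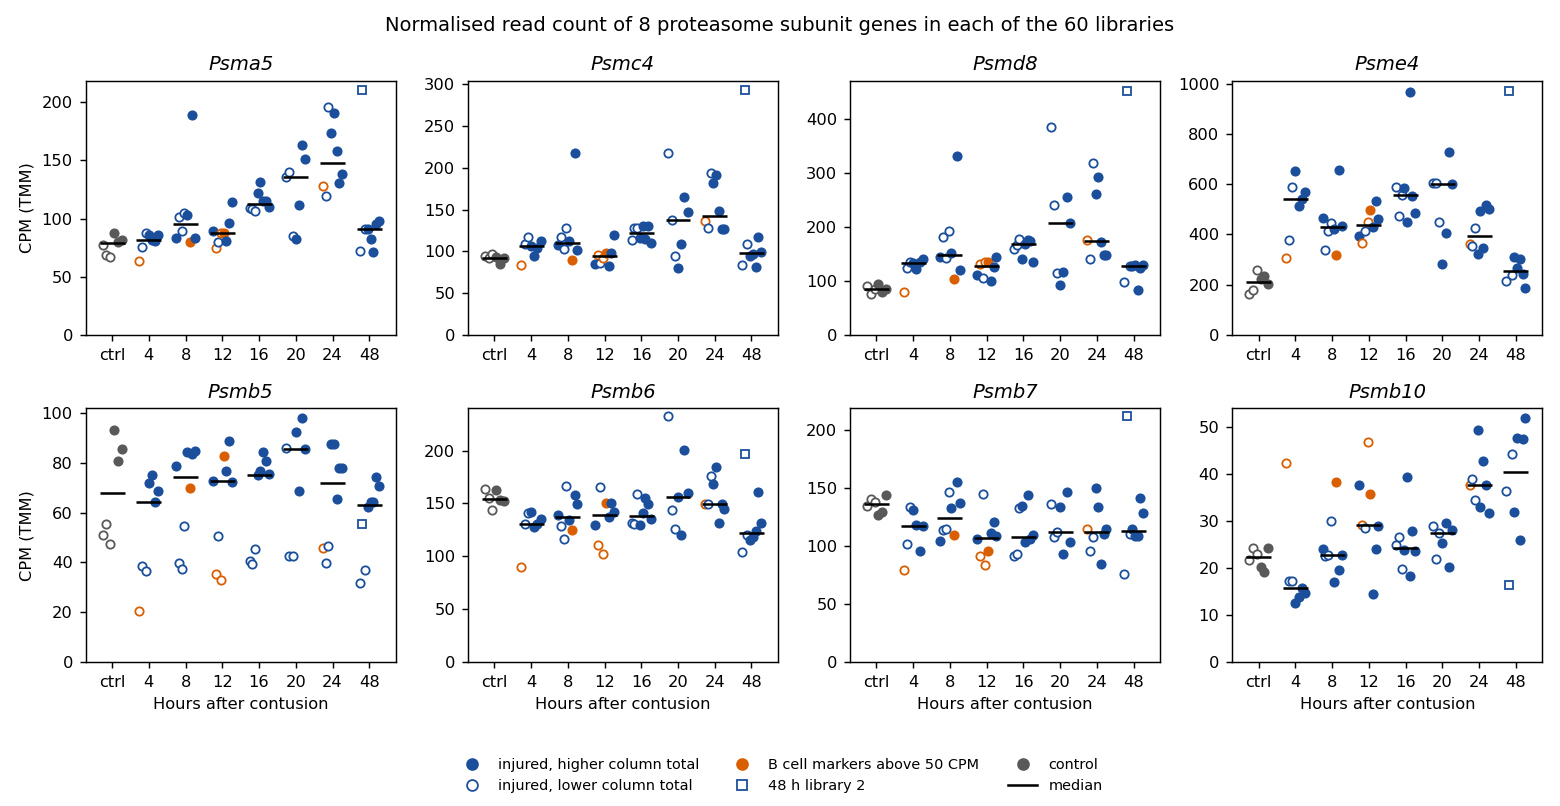
CPM of Psma5, Psmc4, Psmd8, Psme4, Psmb5, Psmb6, Psmb7 and Psmb10 in every library (points), for control and then 4 to 48 h after injury, with a bar at the median. Filled points are libraries of higher total and open points of lower total, orange marks B cell markers above 50 CPM and the square is library 48h 2, which reaches 452 CPM for Psmd8. Psmb5 splits by library total in every group except for 1 library of lower total at 20 h, and all 8 libraries at 24 h lie above the controls for Psma5, Psmc4, Psmd8 and Psmb10.

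In the ATPase ring 5 of 6 subunits were called higher at 24 h and at 20 h, and 3 at 8 h (Psmc1, Psmc2 and Psmc3). There was 1 such call at 48 h (Psmc1), and 0 at 4, 12 and 16 h. The share of all genes called higher was 21.9% at 24 h, 12.9% at 20 h and 24.6% at 8 h. It was 22.8%, 19.1%, 20.0% and 23.0% at 4, 12, 16 and 48 h, when the calls in the ring did not exceed it. All 5 calls at 20 h were lost when any 1 control was left out, and all 3 at 8 h without library 8h 7. That of Psmc1 was lost when any 1 of 25 libraries was left out at 8 h, and any 1 of 23 at 48 h. Psmc4 had the largest change at 24 h, with 126 to 194 CPM (median 142) against 84.8 to 96.4 CPM (median 92.3) in controls. The groups did not overlap, and the log2 change was 0.75 ± 0.19 (adjusted p = 0.0015). Psmc5 had the smallest, with 134 to 174 CPM (median 161) against 123 to 157 CPM (median 135) in controls, a log2 change of 0.21 (interval -0.07 to 0.49) that did not pass. The other 4 rose at 24 h by 0.45 to 0.63. At 16 h all 8 libraries lay above every control for Psmc1, Psmc2, Psmc4 and Psmc6, but their changes of 0.30 to 0.40 did not pass. For how many of all genes the groups were so placed at 16 h was not counted.

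Within the regulatory particle, the largest changes and all calls at 4 h were those of non-ATPase subunits. At 4 h, 4 of 14 were higher and Psmd10 was lower, where 22.8% of all genes were higher and 22.2% lower. At 8, 16, 20, 24 and 48 h 8, 9, 9, 11 and 9 were higher, and at 12 h only Psmd11. Of all genes, 24.6%, 20.0%, 12.9%, 21.9% and 23.0% were higher at these times in turn, and 19.1% at 12 h. Psmd1, Psmd2 and Psmd3 were called higher at every time but 12 h. Of these calls, that of Psmd3 at 48 h was lost without library 48h 2 (adjusted p = 0.069), that of Psmd2 at 20 h without library 20h 1 (0.11) and at 16 h without any 1 of 4 controls, and that of Psmd1 at 20 h without any 1 of 23 libraries. Psmd1 was at 151 to 281 CPM (median 258) at 4 h, against 142 to 165 CPM (median 154) in controls, and in 6 of 7 libraries it exceeded every control (log2 change 0.65 ± 0.15, adjusted p = 0.00028). Psmd3 changed by 0.66 at 4 h and by 1.03 ± 0.19 at 24 h (adjusted p = 1.7e-05). Psmd11, a subunit of the lid, was higher at all 7 times, by 0.54 at 12 h to 1.12 ± 0.21 at 24 h (adjusted p = 2.8e-05). Its call at 12 h was lost without any 1 of 8 libraries (adjusted p up to 0.14), and that at 48 h without library 48h 2 (0.081).

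Psmd8, another lid subunit, had the largest change at 24 h. Its level was 141 to 318 CPM (median 174) at 24 h, against 74.9 to 93.6 CPM (median 84.8) in controls. Again each of the 8 libraries lay above every control, and the log2 change was 1.28 ± 0.27 (adjusted p = 0.00012), a fold of 2.44. At 48 h Psmd8 was at 82.4 to 452 CPM (median 128), a change of 0.90 that passed with library 48h 2 and not without it (adjusted p = 0.088). Psmd14, the deubiquitinase of the lid, was at 81.1 to 117 CPM (median 98.5) at 24 h, against 45.5 to 57.1 CPM (median 50.3) in controls. Its change of 0.96 ± 0.13 had the smallest adjusted p of the members at 24 h (8e-08).

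Psmd5, Psmd9 and Psmd10 are named as subunits but act as assembly chaperones of the ATPase ring. Psmd5 rose at 16, 20, 24 and 48 h (0.46, 0.75, 0.85 and 0.60) and was at 0.02 at 4 h. Psmd9 was higher at all times but 4 h and 12 h, by 0.34 to 0.49, although its call was lost without any 1 of 23 libraries at 16 h and of 5 at 20 h. Psmd10, the weakest expressed of the 3, had the smallest change of the class at 24 h, with 3.59 to 6.97 CPM (median 5.84) against 4.44 to 7.28 CPM (median 5.68) in controls (-0.07, interval -0.42 to 0.28). At 4 h it was at 2.85 to 5.27 CPM (median 3.39), below every control in 6 of 7 libraries, and was called lower (-0.67 ± 0.18, adjusted p = 0.0020). Psmd4, the ubiquitin receptor of the regulatory particle, passed at 24 h only (0.49; lost without any 1 of 5 libraries), and Psmd6 and Psmd12 at no time.

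The activators gave the members' steepest early changes. Psme4, which caps the core without ubiquitin recognition, was at 308 to 651 CPM (median 543) at 4 h, against 164 to 258 CPM (median 212) in controls. All libraries from 4 to 24 h lay above every control. The log2 change was 1.27 ± 0.24 at 4 h (adjusted p = 1.9e-05), 1.05 and 1.07 at 8 and 12 h, 1.47 ± 0.24 at 16 h (adjusted p = 2.7e-06), and 1.32 and 0.98 at 20 and 24 h. At 48 h it was at 185 to 970.2 CPM (median 254), with 4 of 8 libraries above every control, and its change of 0.70 did not pass without library 48h 2 (adjusted p = 0.25).

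Psme3, the nuclear activator, was at 39.5 to 60.5 CPM (median 50.6) at 8 h, against 20.99 to 26.4 CPM (median 25.2) in controls. All 8 libraries lay above every control, and the change of 1.05 ± 0.14 (adjusted p = 4.9e-09) was its highest. It was higher at all 7 times, with the lowest change at 48 h (0.47, 29.4 to 38.0 CPM). Psme2, which pairs with Psme1 and is interferon-inducible, behaved otherwise. It was at 25.7 to 47.2 CPM (median 37.8) at 4 h, against 48.0 to 69.9 CPM (median 53.2) in controls, below every control in 7 of 7 libraries (-0.59 ± 0.16, adjusted p = 0.0016). At 24 h it was at 62.3 to 97.3 CPM (median 69.1) and was called higher (0.40 ± 0.15, adjusted p = 0.029), a call lost when 1 of 6 libraries, 4 of them controls, was left out.

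Neighbouring times were compared in the same fit, since a call at 1 time and not at the next does not show a difference between them. From 4 h to 8 h, Psma2 (0.41, adjusted p = 0.034) and Psme2 (0.55, adjusted p = 0.0062) were higher at 8 h, where 9.45% of all genes were called higher, and 0 members were lower (7.93%). Between 12 h and 8 h, 7 members were lower at 12 h, where 9.94% of all genes were lower and 12.4% higher. They were Psmc2, Psmc3, Psmc5, Psmd1, Psmd2, Psmd3 and Psme3, with log2 changes of -0.53 (Psmd2) to -0.31 (Psmc3). This count was 0 without library 8h 7 (a count at 12 h against 8 h of 11 with DESeq2 on all libraries), 16 with the 53 libraries and 1 (Psmd2) with column totals.

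Between 16 h and 12 h, and between 20 h and 16 h, 0 standard subunits were called in either direction (0 with DESeq2 too; at an unadjusted p below 0.05, 11 were higher at 16 h than at 12 h and 1 at 20 h than at 16 h; with the 53 libraries 7 and with matched columns only 4 were higher at 16 h than at 12 h), where the calls were 0.0933% of all genes higher and 0.536% lower between 16 h and 12 h and 1.25% and 0.659% between 20 h and 16 h. At 24 h against 20 h only Psmd14 was higher (0.44, adjusted p = 0.025), against 1.61% of all genes, and 0 were lower (4.33%). At 48 h, Psma1 (-0.51), Psma5 (-0.61), Psmc6 (-0.64, adjusted p = 0.00054), Psmd7 (-0.38) and Psmd14 (-0.48) were lower than at 24 h, where 2.49% of all genes were lower, and 0 were higher (3.61%). Without library 48h 2, 27 standard subunits were lower, and with the 53 libraries 26 were. With column totals only Psma5 and Psmc6 passed.

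Against control, the inducible subunits were called at 24 and 48 h only. At 4, 8, 12, 16 and 20 h 0 of the 3 were called (edgeR and DESeq2). At an unadjusted p below 0.05, 1 was higher at 12 h and 0 at the other 4 times. At 24 h 1 (Psmb10) was higher and at 48 h all 3, where 21.9% and 23.0% of all genes were. Between neighbouring times 0 of the 3 were called in either direction with all libraries and TMM. A difference between times was thus not shown there, and at an unadjusted p below 0.05, 2 were higher at 24 h than at 20 h. Psmb10 was at 31.6 to 49.2 CPM (median 37.6) at 24 h, against 19.1 to 24.3 CPM (median 22.3) in controls. All 8 libraries lay above every control, with a log2 change of 0.79 ± 0.22 (adjusted p = 0.0025), and at 48 h the change was 0.77 (adjusted p = 0.0031). Psmb9 was at 9.46 to 34.5 CPM (median 22.5) at 48 h, against 8.89 to 13.4 CPM (median 11.9) in controls, above every control in 7 of 8 libraries (0.96 ± 0.29, adjusted p = 0.0061). At 24 h Psmb9 lay above every control in 8 of 8 libraries, and its change of 0.67 did not pass (adjusted p = 0.056). Psmb8 was at 11.0 to 60.04 CPM (median 30.4) at 48 h, against 13.1 to 24.4 CPM (median 17.7) in controls. The change of 0.99 ± 0.37 (adjusted p = 0.029) was lost without any 1 of 6 libraries, 3 at 48 h and 3 controls.

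Library 4h 1 was high in the inducible subunits and in lymphocyte markers alike. At 4 h, Psmb8 was at 69.5 CPM in library 4h 1 and at 6.58 to 11.4 CPM in the other 6, against 13.1 to 24.4 CPM in controls. In 4h 1 the B cell markers summed to 380.7 CPM of the column total, and in the other 4 h libraries to at most 7.86. Without 4h 1 and the other 5 libraries above 50 CPM, Psmb8 (-0.998, adjusted p = 0.0022) and Psmb10 (-0.51, adjusted p = 0.024) were called lower at 4 h. At 12 h, when 3 of 8 libraries were above 50 CPM, the changes of Psmb8, Psmb9 and Psmb10 were 0.52, 0.41 and 0.47 with all libraries and 0.25, -0.04 and 0.28 without those 3. None of these passed, whereas with the 53 libraries, which keep those 3, all 3 genes did (0.61, 0.62 and 0.61). The 5 markers of lymph node stroma (Glycam1, Ccl21, Ccl19, Cxcl13 and Madcam1) were high in some libraries too. Their sum reached 746.5 CPM at 4 h (median 12.4), 400.6 at 8 h, 519.6 at 12 h and 114.3 at 24 h, against 19.3 to 49.5 CPM in controls. The part of either tissue marker list in the inducible subunits was not tested.

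At 48 h the marker lists differed in another way. B cell markers summed to 0.322 to 22.2 CPM, against 0.565 to 13.8 CPM in controls, and 8 T cell markers to 32.6 to 181 CPM, against 7.98 to 20.2 CPM. Of the T cell markers, Cd8a had a median of 73.3 CPM at 48 h, against 0.613 in controls, and Cd3e, a defining part of the T cell receptor, 0.598 against 0.455. Macrophage and monocyte markers summed to 1094 to 2886 CPM, against 180.6 to 305.4 CPM in controls. Their part in the rise of the inducible subunits was not tested.

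Within a library, the ratio of an inducible subunit to the standard subunit it replaces does not depend on the scaling. The ratio of Psmb10 to Psmb7 reads (log2) ran from -2.01 to -0.99 (median -1.60) at 24 h, against -2.75 to -2.53 (median -2.61) in controls. All 8 libraries lay above every control, and the difference of 1.05 ± 0.12 (SE), a fold of 2.07, passed the exact two-sided permutation test (p = 0.000666, the smallest it can give for 8 against 6 libraries; adjusted p = 0.014 over 21 comparisons). It was the only ratio to pass with all libraries. At 24 h within libraries of higher and lower total, the mean ratios were -1.60 and -1.52, against -2.66 and -2.58 in controls.

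The other ratios pointed the same way at 48 h but varied more between rats. That of Psmb9 to Psmb6 differed from control by 1.10 at 48 h (above every control in 7 of 8 libraries; exact permutation test, adjusted p = 0.075) and by 0.62 at 24 h (7 of 8; adjusted p = 0.063). That of Psmb8 to Psmb5 differed by 1.12 at 48 h (6 of 8; adjusted p = 0.078), and that of Psmb10 to Psmb7 by 0.75 at 12 h, 0.43 at 20 h and 0.86 at 48 h (adjusted p = 0.078, 0.078 and 0.092). With the 53 libraries, which leave out 48h 2 and 48h 6, all 3 ratios passed at 48 h (1.44, 1.44 and 1.24), that of Psmb9 to Psmb6 at 24 h and that of Psmb10 to Psmb7 at 12 h (0.94). Since Psmb5 splits with the library total, the ratio of Psmb8 to Psmb5 did so too, at -2.62 to -1.81 in the 3 controls of higher total and -1.88 to -1.29 in the 3 of lower total.

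**Figure D4:**
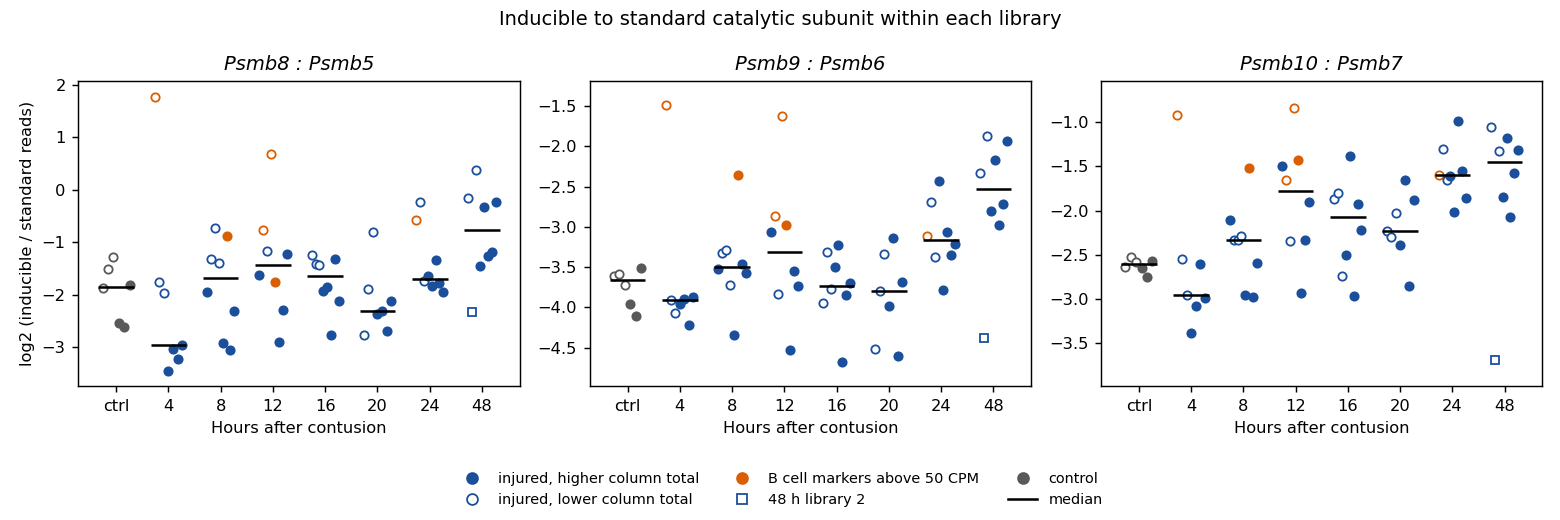
Log2 ratio of reads of Psmb8 to Psmb5, Psmb9 to Psmb6 and Psmb10 to Psmb7 within each library (points, symbols as for the CPM per library), for control and then 4 to 48 h after injury, with a bar at the median. At 24 h all 8 libraries of the Psmb10 to Psmb7 panel lie above the controls (-2.01 to -0.99 against -2.75 to -2.53), and library 4h 1 stands far above the other 4 h libraries in all 3 panels.

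Genes that serve the immunoproteasome were followed as a list of 7 (Tap1, Tap2, Tapbp, B2m, Erap1, Irf1 and Nlrc5). Of these, 3 were higher and 1 lower at 4 h. At 8 and 12 h 3 and 2 were higher, at 16 and 20 h 0, and at 24 and 48 h 4 each. The share called higher was 42.9% at 4 and 8 h each, against 22.8% and 24.6% of all genes. It was 28.6% at 12 h (19.1%), 0% at 16 and 20 h (20.0% and 12.9%), and 57.1% at 24 and 48 h each (21.9% and 23.0%). The share lower at 4 h was 14.3%, against 22.2% of all genes. Irf1, an interferon-induced transcription factor that drives these genes, was at 98.4 to 312 CPM (median 242) at 4 h, against 24.8 to 29.9 CPM (median 26.1) in controls (2.93 ± 0.23, adjusted p = 3.9e-15). It was still higher at 8 h (0.97) and passed at no later time. Tap1, a chain of the peptide transporter into the endoplasmic reticulum, changed by 1.33 at 4 h, by 0.97 and 0.65 at 8 and 12 h, and by 1.04 and 1.05 at 24 and 48 h, with 16.0 to 47.1 CPM (median 32.6) at 48 h against 11.4 to 20.4 CPM (median 15.7) in controls. Nlrc5, the transactivator of MHC class I, was higher at the same 5 times (1.45 to 2.20). Without the 6 libraries high in B cell markers, both lost the call at 12 h, with changes of 0.27 for Tap1 (adjusted p = 0.48) and 0.30 for Nlrc5 (adjusted p = 0.53). At 4 h, when Irf1, Tap1 and Nlrc5 were higher, 0 of the 3 inducible subunits were.

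Of 32 genes that assemble, regulate or feed the proteasome, 9 were higher and 8 lower at 4 h, 12 and 5 at 8 h, and 6 and 2 at 12 h. At 16, 20, 24 and 48 h 11, 8, 9 and 9 were higher and 1, 1, 2 and 3 lower. The shares at 4 h (28.1% higher and 25.0% lower) were near those of all genes (22.8% and 22.2%), as were the shares higher at 12 h (18.8% against 19.1%), 24 h (28.1% against 21.9%) and 48 h (28.1% against 23.0%). Those at 8, 16 and 20 h were 37.5%, 34.4% and 25.0%, against 24.6%, 20.0% and 12.9%. The shares lower at 8, 12 and 16 h were 15.6%, 6.25% and 3.1%, against 25.9%, 13.1% and 16.9% of all genes. At 20, 24 and 48 h they were 3.1%, 6.25% and 9.4%, against 6.61%, 20.1% and 18.2%. Zfand2a, a stress-induced zinc finger protein that binds the regulatory particle, changed most. It was at 112 to 952 CPM (median 219.9) at 8 h, against 11.0 to 15.6 CPM (median 13.0) in controls, a log2 change of 4.43 ± 0.53 (adjusted p = 6.9e-10), and was higher at all 7 times. Ubb, a polyubiquitin gene, passed at no time.

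Nfe2l1 itself was at 123 to 283 CPM (median 249.9) at 4 h, against 99.998 to 128 CPM (median 116) in controls. It was called higher at 4 h (1.01 ± 0.22, adjusted p = 0.00011), 8 h (0.69), 16 h (0.58), 20 h (0.65) and 48 h (0.77), and its changes of 0.40 at 12 h and 0.37 at 24 h did not pass. Nfe2l2, its relative in the oxidative stress response, was higher at every time but 20 h, most at 4 h (1.35). Of the factors that release NFE2L1 from the endoplasmic reticulum, Vcp and its cofactor Nploc4 were higher at every time but 12 h, Ddi2, the protease that cuts it, at 48 h only (0.60), and Ngly1 at none (lower at 8 h, -0.29). Adrm1, a ubiquitin receptor of the regulatory particle, was higher at every time but 12 h, at 124 to 211 CPM (median 151) at 24 h against 75.6 to 101 CPM (median 86.8) in controls (0.92 ± 0.19). The shuttle Rad23b was higher at all 7 times, and Ubqln1 from 4 to 24 h.

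The assembly chaperones of the core moved the other way early on. At 4 h all 5 (Pomp, Psmg1, Psmg2, Psmg3 and Psmg4) were lower, also with column totals. Psmg2 was at 11.2 to 14.0 CPM (median 13.3) at 4 h, against 18.8 to 21.5 CPM (median 20.2) in controls, below every control in 7 of 7 libraries (-0.67 ± 0.09, adjusted p = 6.9e-09). At 24 h it was at 19.7 to 23.1 CPM (median 20.4) and its change was 0.04. Pomp was at 7.27 to 9.09 CPM at 4 h, against 9.53 to 59.0 CPM (median 12.2) in controls (-1.26 ± 0.47, adjusted p = 0.026). Sem1, a small subunit of the regulatory particle outside the Psm names, was lower at all 7 times (-0.68 to -0.31), but with column totals only at 4 and 8 h.

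**Figure D5:**
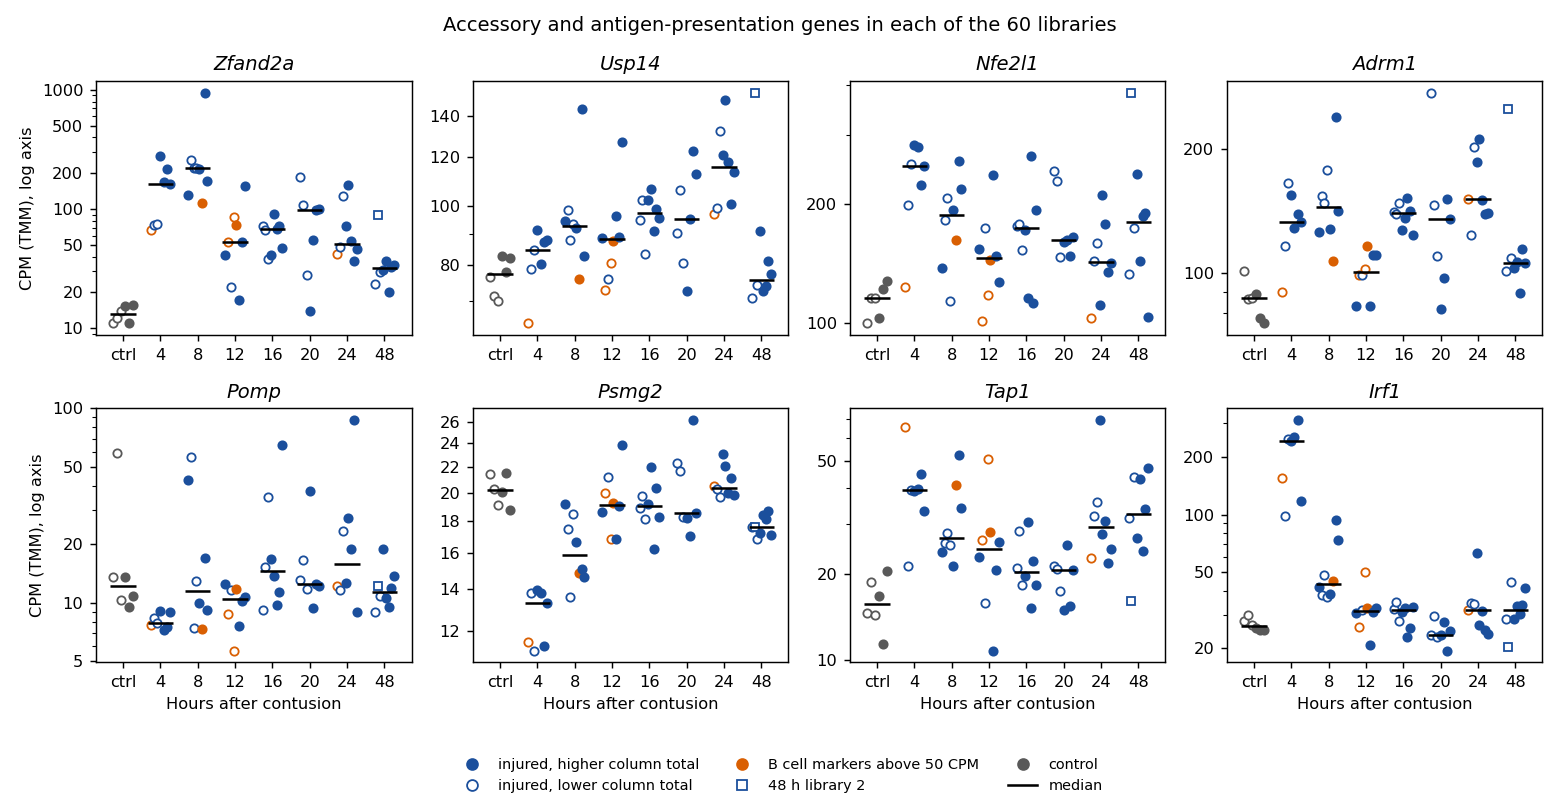
CPM (log axis) of Zfand2a, Usp14, Nfe2l1, Adrm1, Pomp, Psmg2, Tap1 and Irf1 in every library (points, symbols as for the subunits), for control and then 4 to 48 h after injury, with a bar at the median. Zfand2a peaks at 8 h (median 219.9 CPM against 13.0 in controls), Irf1 at 4 h (242 against 26.1), and Psmg2 is lowest at 4 h (13.3 against 20.2).

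Most standard subunits also varied together over the libraries, where differences between groups and between rats were not separated. Spearman's rho of each with the mean log2 level of the other 35 over the 60 libraries had a median of 0.778, as a description of libraries that share groups, totals and scaling. It was highest for Psmc4 (0.937) and Psma5 (0.927), and low for Psmb5 (0.289), Psmb7 (0.233), Psme2 (0.105) and Psmd10 (0.044). For the inducible subunits rho was -0.212 (Psmb8), -0.138 (Psmb9) and -0.007 (Psmb10).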

How the data were processed

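Total RNA of 60 rat muscles was sequenced as paired-end poly(A) libraries. Alignment to rn6 was done by the authors with HISAT2 2.1.0, and reads were counted per gene with HTSeq 0.6.1, reverse stranded and unique to 1 gene, so that reads shared by near-identical copies were dropped. The deposited values are these raw read counts. All 60 columns were assigned to a group by position (0 value columns were left out). Of the 11 that matched no library of the study's table, 4 fitted their group's medians there and 7 had no such check. The members, lists and tests were chosen with earlier results of these data known.

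Genes with a total of at least 5 reads were fitted with edgeR 4.0.16 (R 4.3.3; TMM scaling, quasi-likelihood test, 1 mean per group over all libraries), with p-values adjusted by Benjamini-Hochberg over 17155 genes and called below 0.05. A standard error is the log2 change divided by the root of the F statistic. The code was tested on simulated data. Log2 ratios within a library, with 0.5 added to each count, were compared by exact two-sided permutation tests with scipy 1.17.1, adjusted over 21 comparisons. Total reads per library and the spread between rats both enter the precision, and intervals cover this spread. Values were given in full for the catalytic, inducible and activator subunits and for the members of each class with the largest and smallest change at the time of the largest median change. Psmd1, Psmd3, Psmd11 and Psmd14, the examples from the accessory and antigen presentation lists, and the promoters printed were picked after their values were seen. Alternatives were DESeq2 1.42.0, RLE scaling, column totals, other filters, the set of library totals as a term, groups by heading, matched columns only and each library left out. The fit of the 53 libraries and that without libraries high in B cell markers were chosen after seeing the data. Promoters came from RefSeq (GRCr8), and protein sequences were not used here. Paaf1 was not analysed here, and Shfm1, Ecm29 and Ufd1l were followed under their current symbols Sem1, Ecpas and Ufd1.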

Additional observations from a re-analysis of the deposited data

Results flagged for a closer look

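Of 160 sets of values of the members described in full (17 members and 3 ratios in each group), 31 had a library far from the rest of its group by Dixon's test. Chance gives about 1 in 20 for sets independent of each other. These sets share libraries and genes, so their number cannot be weighed against that rate. Of the 31 sets, 9 concerned library 4h 1. Against the other 4 h libraries it was low in Psmb6 (89.7 CPM), Psmc5 (98.3 CPM) and Psmd8 (79.1 CPM), and high in Psmb8 (69.5 CPM), Psmb9 (32.0 CPM), Psmb10 (42.2 CPM) and the log2 ratios of Psmb8 to Psmb5 (1.77), Psmb9 to Psmb6 (-1.49) and Psmb10 to Psmb7 (-0.91). Library 48h 2 gave another 9. It was high in Psme4 (970.2 CPM), Psma5 (211 CPM), Psma7 (427 CPM), Psmb3 (256 CPM), Psmc4 (293 CPM), Psmc5 (292 CPM) and Psmd8 (452 CPM), and low in the ratios of Psmb9 to Psmb6 (-4.38) and Psmb10 to Psmb7 (-3.69). Library 8h 7 was high in Psme4 (657 CPM), Psma5 (189 CPM), Psmb3 (157 CPM), Psmc4 (218 CPM) and Psmd8 (332 CPM), and 8h 6 in Psmb8 (38.0 CPM) and Psmb9 (24.2 CPM). Single high values were Psma7 in 4h 3 (281 CPM), Psmd10 in 12h 3 (7.49 CPM), Psmc4 in 12h 8 (120 CPM), Psmb8 in 16h 7 (32.5 CPM), Psmb10 in 16h 5 (39.4 CPM) and Psme4 in 16h 6 (967 CPM).

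Between neighbouring times 15 differences passed edgeR's test. At 8 h against 4 h these were Psma2 (0.41) and Psme2 (0.55). At 12 h against 8 h they were Psmc2 (-0.40), Psmc3 (-0.31), Psmc5 (-0.34), Psmd1 (-0.41), Psmd2 (-0.53), Psmd3 (-0.52) and Psme3 (-0.33). At 24 h against 20 h it was Psmd14 (0.44), and at 48 h against 24 h Psma1 (-0.51), Psma5 (-0.61), Psmc6 (-0.64), Psmd14 (-0.48) and Psmd7 (-0.38).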

How the results depend on the processing

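No log2 change of a named member that had passed changed its sign under the alternatives run for single members, which were all but the groups by heading, and the 21 ratio comparisons kept their side of the threshold with 5 added to each count. Within libraries of higher and lower total, where no test was run, the difference in the ratio of Psmb10 to Psmb7 at 24 h was 1.05 and 1.06. No paired analysis was possible because no rat gave more than 1 library and the numbers in the headings only name columns. Below, the value with all libraries and TMM stands in brackets after each changed value, and the cause of each change was not tested.

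With the 53 libraries, standard subunits were 12 higher at 4 h (6), 1 lower at 12 h (0) and 3 lower at 48 h (0), and between neighbours 5 higher at 8 h (2), 16 lower at 12 h (7), 7 higher at 16 h (0) and 26 lower at 48 h (5). Inducible subunits were 2 lower at 4 h (0), 3 higher at 12 h (0) and 2 higher at 24 h (1), and between neighbours 2 higher at 8 h, 3 higher at 12 h, 1 lower at 16 h, 2 higher at 24 h and 1 higher at 48 h (0 each). Accessory genes were 7 lower at 48 h (3). The ratios that then passed were Psmb8 to Psmb5 at 48 h (1.44), Psmb9 to Psmb6 at 24 h (0.62) and 48 h (1.44) and Psmb10 to Psmb7 at 12 h (0.94) and 48 h (1.24). With the matched columns only, which leave 2 libraries at 48 h, standard subunits were 14 higher at 4 h (6), 5 at 12 h (3) and 2 at 48 h (13), and between neighbours 5 higher at 8 h (2), 14 lower at 12 h (7), 4 higher at 16 h (0) and 15 lower at 48 h (5). Inducible subunits were 2 lower at 4 h (0), 3 higher at 12 h (0) and 3 higher at 24 h (1), and between neighbours 2 higher at 8 h, 3 higher at 12 h, 1 lower at 16 h and 2 higher at 24 h (0 each). Accessory genes were 1 lower at 12 h (2) and 0 higher at 48 h (9), and the ratios Psmb9 to Psmb6 at 24 h (0.62) and Psmb10 to Psmb7 at 12 h (0.94) passed.

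With column totals, which place more genes above control, standard subunits were 13 higher at 12 h (3), and 28, 31 and 34 higher at 16, 20 and 48 h (12, 19 and 13), and between neighbours 1 lower at 12 h (7), 23 higher at 24 h (1) and 2 lower at 48 h (5). Inducible subunits were 1 higher at 12 h (0) and 3 at 24 h (1), and 2 higher at 24 h than at 20 h (0). Accessory genes were 13, 19, 15, 28 and 29 higher at 12, 16, 20, 24 and 48 h (6, 11, 8, 9 and 9), and 2 lower at 8 h (5) and 0 at the later times (2, 1, 1, 2 and 3). With groups by heading, standard subunits were 1, 2, 7, 9 and 3 higher at 4, 8, 12, 24 and 48 h (6, 14, 3, 27 and 13), 0 lower at 4 h (2) and 5 lower at 48 h (0), and inducible subunits 1 higher at 20 h (0) and 0 at 48 h (3). DESeq2 gave 11 lower at 12 h against 8 h (7) and 2 inducible subunits higher at 24 h (1). The set of totals as a term gave 1 standard subunit lower at 8 h and 1 at 48 h (0 each) and 2 inducible higher at 24 h (1), and RLE gave 1 accessory gene lower at 48 h (3). Without the libraries high in B cell markers, inducible subunits were 2 lower at 4 h (0), 2 higher at 24 h (1), 2 higher at 8 h against 4 h (0) and 2 higher at 24 h against 20 h (0), and 0 accessory genes were lower at 12 h (2).

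Leaving out 1 library at a time, standard subunits ranged from 2 to 4 lower at 4 h, 9 to 17 higher and 0 to 1 lower at 8 h, 0 to 1 lower at 12 h and at 16 h, 10 to 23 higher at 20 h, and 7 to 16 higher and 0 to 3 lower at 48 h. Between neighbours they ranged from 1 to 4 higher at 8 h, 0 to 12 lower at 12 h, 0 to 1 higher at 24 h and 4 to 27 lower at 48 h. Inducible subunits ranged from 0 to 2 lower at 4 h, 0 to 1 higher at 12 h and 1 to 2 higher at 24 h, and between neighbours from 0 to 3 higher at 8 h and 0 to 2 at 24 h, the highest without 4h 1. Accessory genes ranged from 2 (without 12h 8) to 6 higher and 0 to 2 lower at 12 h, 0 to 1 lower at 20 h, 1 to 2 lower at 24 h, and 3 (without 48h 2) to 10 higher and 1 to 5 lower at 48 h. The ratios ranged from 0.95 to 1.33 (Psmb8 to Psmb5, 48 h), 0.52 to 0.71 and 0.99 to 1.35 (Psmb9 to Psmb6, 24 and 48 h), and 0.61 to 0.90, 0.34 to 0.54 and 0.76 to 1.14 (Psmb10 to Psmb7, 12, 20 and 48 h). Of the 100 calls of members against control, 29 were lost when some single library was left out. These were Psma5, Psmc1, Psmc2, Psmc3 and Psmd13 at 8 h, Psmd11 at 12 h, Psmd2 and Psmd9 at 16 h, Psma1, Psmb2, Psmc1, Psmc2, Psmc3, Psmc4, Psmc6, Psmd1, Psmd2 and Psmd9 at 20 h, Psmb1, Psmd4 and Psme2 at 24 h, and Psmb3, Psmb8, Psmc1, Psmd3, Psmd8, Psmd11, Psmd13 and Psme4 at 48 h. With 17, 7 and 103 reads in total, Psma8, Psmb11 and Psme1 gave no readable change.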

Other observations

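Among the accessory genes not yet described, the ubiquitin-recycling and ubiquitin-activating enzymes differed in course. Usp14, the deubiquitinase that docks on the regulatory particle, was at 96.8 to 149 CPM (median 116) at 24 h, against 69.8 to 82.7 CPM (median 77.3) in controls. All 8 libraries lay above every control, and the log2 change was 0.60 ± 0.14 (SE, edgeR, adjusted p = 0.00028). It was also called higher at 8 h (0.32) and 16 h (0.33). Uchl5, the other deubiquitinase docked there, passed at no time. Of the ubiquitin-activating enzymes, Uba6 was higher at 12, 16 and 24 h (0.41, 0.40 and 0.53), and Uba1 at 8 and 48 h by 0.15 and 0.14. Rps27a, which encodes ubiquitin fused to a ribosomal protein, was lower at 4 h only (-0.43).

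Zfand5, a relative of Zfand2a that activates the proteasome in muscle wasting, passed at no time with all libraries. At 48 h it was at 128 to 985 CPM (median 184) against 280 to 375 CPM (median 339) in controls, a change of -0.25 (adjusted p = 0.56). With the 53 libraries, which leave out 48h 2 and 48h 6, it was called lower (-0.97, adjusted p = 0.00075), and with column totals the change was 0.33 (adjusted p = 0.32).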
